A study of Homo sapiens with 6 samples.

Results

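The SR and hnRNP splicing factor genes were taken as all rows of the expression table whose gene symbol is SRSF followed by a number or begins with HNRNP. This gave 35 genes of the 19451 different genes in the table, 12 of them SRSF genes and 23 HNRNP genes. Of the 35, 33 are protein-coding and 2, HNRNPA1P33 and HNRNPA3P1, are transcribed pseudogenes in the RefSeq annotation. RNA sequencing was done on A431, an established human line of squamous carcinoma cells, grown in DMEM with 10% FBS. The 6 samples formed 2 groups, 3 with a control shRNA (shCONTROL) and 3 with an shRNA targeting ARID1A (shARID1A), all of them in the same cell line and without any further treatment in the labels. The labels name neither a time after shRNA delivery, nor the number of different hairpins, nor whether a group's 3 samples came from separate cultures, and p-values therefore measure the spread between these samples only, which may be technical. ARID1A encodes the largest subunit of the canonical SWI/SNF chromatin remodeller, and the comparison asks how expression differs when it is depleted.

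SR proteins carry RNA recognition motifs followed by a stretch rich in arginine and serine, bind exonic enhancer sequences and help the spliceosome to choose nearby splice sites. Heterogeneous nuclear ribonucleoproteins (hnRNPs) package nascent transcripts, and several of them, such as hnRNP A1, often act against SR proteins by favouring exon skipping. The balance of both families sets the choice of alternative exons in many genes, and many of these genes limit their own mRNA through exons that expose it to nonsense-mediated decay. Many members are among the abundant mRNAs of growing cells, and SRSF1 is known as an oncogene in several carcinomas.

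Values are FPKM as the authors deposited them, that is, reads per gene scaled to the length of the gene and to all assigned reads of the sample. A fold change is the difference of the group means of log2(FPKM + 1), shARID1A minus shCONTROL, which makes changes of weakly expressed genes look smaller. Tests were made with limma over the 11599 genes whose mean reached 1 FPKM, and a gene passed with a Benjamini-Hochberg adjusted p below 0.05 over all of these. The assigned reads per sample, recovered from the values, numbered 31658040 to 36453744. ARID1A stood at 22.8, 22.8 and 23.8 FPKM with the control shRNA and at 6.70, 7.62 and 7.31 FPKM with the ARID1A shRNA, a log2 fold change of -1.55 ± 0.094 (standard error; limma, adjusted p = 0.000187). Each sample thus matched its label, and the exact two-sided permutation p of 0.1 is the smallest that 3 samples against 3 allow. Of 12 epithelial markers, listed for the labelled squamous type but not all particular to it, 11 had a mean of at least 1 FPKM, the exception being KRT14. The summed level of the 12 was 2782 to 3181 FPKM in the controls and 2355 to 2951 FPKM with the ARID1A shRNA. KRT5, KRT8 and TP63 fell, with log2 fold changes of -0.65, -0.42 and -0.46 (limma, adjusted p = 0.0351, 0.00996 and 0.0106). The other epithelial markers tested did not pass. Among markers of other cells, 2 of 7 fibroblast genes (COL1A1 and LUM) and 1 of 5 leukocyte genes (CD68) reached a mean of 1 FPKM. None of the 15 fibroblast, leukocyte and endothelial markers in the table was at 0 in all samples, and PDGFRA, DCN and CD3E were listed at 0 in every control. The summed fibroblast markers lay at 6.56 to 8.96 FPKM in the controls and 10.3 to 12.5 FPKM with the ARID1A shRNA, the leukocyte markers at 12.0 to 16.0 and 9.14 to 15.5 FPKM, and the endothelial markers at 0.131 FPKM or less in every sample. Of the 2 fibroblast genes, LUM rose from a mean of 4.64 to 8.77 FPKM (limma, adjusted p = 0.0156), while COL1A1 had means of 2.78 and 2.43 FPKM and did not pass (adjusted p = 0.463). The part of the other cells in the results was not tested.

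Few SR and hnRNP genes passed the test. Of the 35 genes, 32 reached a mean of 1 FPKM and were tested, and 1 of them, SRSF5, passed and fell, while 0 rose. This is 3.12% of the members tested, against 16.8% of all genes tested that passed, 5.85% higher and 10.9% lower. The split of calls over all genes, 679 higher and 1265 lower, became 947 and 831 after quantile normalization and 1137 and 911 with limma voom on the recovered reads, an alternative test. The changes were small, with log2 fold changes between -0.41 and 0.35, and the 95% intervals of all 32 lay within 1 log2 unit of 0, which was so for 92.4% of all genes tested. The signs leaned upwards, with 24 of 32 members (75.0%) above 0 against 38.1% of all genes tested, and a median of 0.13 against -0.08. This rested in part on 1 sample, since without shARID1A replicate 3 it was 18 of 32 members (56.2%) against 37.8% of all genes, and a median of 0.04 against -0.10. The background also depended on the scaling, with 49.5% of all genes above 0 after quantile normalization, beside 24 members, and 51.2% by voom, beside 26 members. The medians over all genes were -0.003 and 0.01 in these settings, and those of the members 0.11 and 0.24. Without a correction for multiple tests, 9 members had p below 0.05, 6 higher and 3 lower, a share of 28.1% against 33.9% of all genes. The 3 values of each group did not overlap for 13 members, 9 with all shARID1A samples above the controls and 4 with all below. Those are 28.1% and 12.5% of the members, against 13.4% and 25.4% of all genes tested. In both directions together the shares were close, 40.6% of the members against 38.8% of all genes tested. With the replicate number as a block, 4 members passed, SRSF5 lower and SRSF1, HNRNPC and HNRNPH3 higher, against 23.6% of all genes tested (8.12% higher and 15.5% lower). This block assumes a pairing of samples by number that the labels do not state. By voom 6 passed, all higher (18.8%, against 17.7% of all genes, 9.80% of them higher), and after upper quartile scaling 2 passed, SRSF5 lower and HNRNPC higher (6.25% against 16.0%). Without a filter on low values 0 of the 35 passed, against 7.77% of all genes, and 9 had an unadjusted p below 0.05 with the filter. The count was 0 without shCONTROL replicate 1 or 2, 2 without shARID1A replicate 2 (HNRNPC and SRSF1, both higher) and 5 without shARID1A replicate 3 (HNRNPL, HNRNPA0 and HNRNPAB higher, SRSF5 and HNRNPLL lower). Over all genes the shares without these samples were 6.43%, 5.05%, 14.4% and 29.2%, so that the 5 members (15.6%) were fewer than the background. The count was 1 without shCONTROL replicate 3, where the gene was HNRNPC, and 1 without shARID1A replicate 1, where it was SRSF5 (12.1% and 6.78% of all genes).

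**Figure D1:**
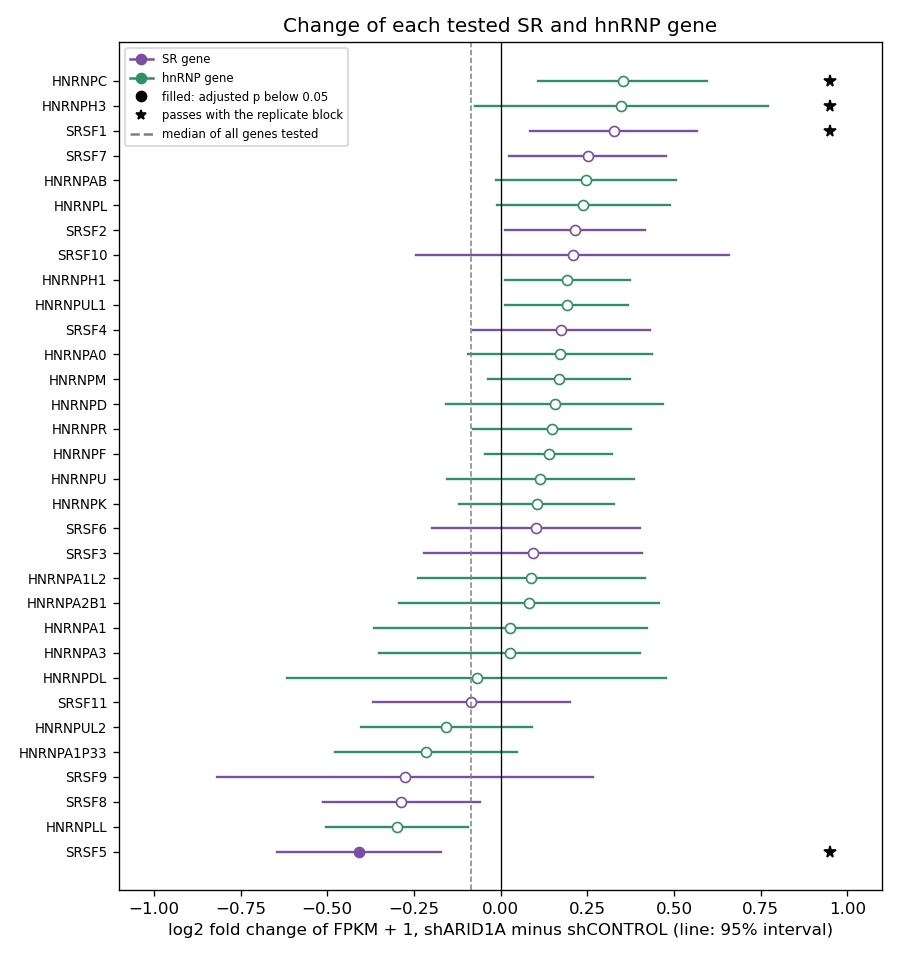
Log2 fold change (shARID1A minus shCONTROL, horizontal axis) with its 95% limma interval for the 32 members tested, 3 samples per group. The dashed line is the median of all genes tested (-0.08). SRSF5 alone is filled (adjusted p below 0.05), stars mark the 4 genes that passed with the replicate block, and 24 of the 32 points lie to the right of 0.

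Of the SR genes, 11 of 12 were tested, and SRSF5 was the 1 that passed (9.09%, against 16.8% of all genes tested). SRSF5, with the gene ID 6430, is a splicing factor also known for its induction by insulin in rat liver. It had 71.0, 66.8 and 64.1 FPKM in the controls and 56.8, 45.4 and 49.8 FPKM with the ARID1A shRNA. Every shARID1A sample lay below every control. The mean was 67.3 ± 3.46 FPKM (SD, n = 3) in the controls and fell to 50.7 ± 5.78 FPKM (SD, n = 3), a log2 fold change of -0.41 with a standard error of 0.10 and a 95% interval of -0.64 to -0.17 (limma, adjusted p = 0.0318). At least 2439 reads lay behind each value. With the replicate block the adjusted p was 0.0178. The call was lost on leaving out shCONTROL replicate 1, 2 or 3 or shARID1A replicate 2 (adjusted p = 0.129, 0.122, 0.0585 and 0.0555), without the filter (0.0534) and by voom (0.0807). The fold change stayed below 0 in all 17 alternatives, between -0.49 and -0.31.

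SRSF1, SRSF3 and SRSF7 shuttle between nucleus and cytoplasm and also act as adaptors of mRNA export. SRSF1, with the gene ID 6426, had 72.1, 75.2 and 81.3 FPKM in the controls and 93.0, 86.8 and 109 FPKM with the ARID1A shRNA. The groups did not overlap, with means of 76.2 ± 4.66 and 96.2 ± 11.3 FPKM, but the log2 fold change of 0.33 (standard error 0.11) missed the threshold (limma, adjusted p = 0.0667). It passed with the replicate block (adjusted p = 0.0338), without shARID1A replicate 2 (0.0406) and by voom (0.0185). SRSF7, which has a zinc knuckle beside its RNA recognition motif, had 47.1, 52.1 and 56.6 FPKM in the controls and 57.8, 62.0 and 65.9 FPKM with the ARID1A shRNA, again without overlap, a log2 fold change of 0.25 (adjusted p = 0.117, and 0.0425 by voom). SRSF3, the smallest of these proteins, stood at 75.3, 75.5 and 86.4 FPKM and at 78.9, 72.8 and 104 FPKM. These SRSF3 values overlapped (log2 fold change 0.09, 95% interval -0.22 to 0.41), and without shARID1A replicate 3 the sign turned (-0.06).

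Among the other SR genes, SRSF6 and SRSF2 had the highest levels. SRSF6, a regulator of alternative splicing that is amplified in some carcinomas, stood at 97.9, 103 and 114 FPKM in the controls and at 101, 102 and 137 FPKM with the ARID1A shRNA. Its groups overlapped, and the value that stands out is that of shARID1A replicate 3 (log2 fold change 0.10, adjusted p = 0.624, and -0.04 without that sample). SRSF2, the nuclear speckle protein that is often mutated in myeloid neoplasms, stood at 86.6, 80.0 and 81.6 FPKM and at 97.3, 89.1 and 102 FPKM. Its groups did not overlap, with a log2 fold change of 0.21 that missed the threshold (limma, adjusted p = 0.127, and 0.0337 by voom). SRSF8, a retrocopy of SRSF2 in the human genome, was below it in level and opposite in sign, at 9.53, 9.90 and 8.62 FPKM in the controls and 7.60, 7.31 and 7.53 FPKM with the ARID1A shRNA (log2 fold change -0.29, adjusted p = 0.0827). SRSF2 and SRSF8 are similar in sequence, so reads may be divided between them.

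The other 4 tested SR genes did not pass either. SRSF4 stood at 35.9 ± 0.022 FPKM in the controls and 41.0 ± 6.02 FPKM with the ARID1A shRNA, where replicate 3 had 47.9 FPKM against 37.4 and 37.6 FPKM (adjusted p = 0.305). SRSF10, which represses splicing when it loses its phosphates in mitosis or after heat shock, had its highest value likewise in shARID1A replicate 3, 13.8 FPKM against 8.42 and 7.86 FPKM, with controls at 7.48 to 9.58 FPKM (adjusted p = 0.493). SRSF11 also peaked in that sample, at 49.5 FPKM against 38.7 and 37.1 FPKM, with controls at 40.7 to 47.0 FPKM (adjusted p = 0.669). SRSF9 went the other way, with its values spread widely, 108, 68.1 and 51.9 FPKM beside controls of 98.3, 74.7 and 93.0 FPKM (log2 fold change -0.28, 95% interval -0.82 to 0.27). Its log2 fold change was -0.04 without shARID1A replicate 3 and -0.56 without shARID1A replicate 1. SRSF12 was listed at 0 in 4 samples, with 4 reads in each of the other 2, and was not tested.

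Of the 23 hnRNP genes, 21 were tested and 0 passed, against 16.8% of all genes tested. A log2 fold change above 0 was found for 17 (81.0%, against 38.1% of all genes). At an unadjusted p below 0.05 there were 4 (19.0%, against 33.9% of all genes). HNRNPC, HNRNPUL1 and HNRNPH1 were higher and HNRNPLL lower. By voom HNRNPC, HNRNPUL1 and HNRNPH1 passed, all higher, a direction in which 9.80% of all genes passed. The summed level of the 23 genes was 2840, 2821 and 2862 FPKM in the controls and 3345, 3008 and 3272 FPKM with the ARID1A shRNA. All shARID1A sums lay above the controls, a ratio of means of 1.13, which stayed between 1.13 and 1.16, without overlap, when each sample was rescaled to an equal FPKM sum or by its upper quartile. The 12 SR genes summed to 648, 625 and 672 FPKM and to 685, 616 and 739 FPKM, which overlapped (ratio 1.05). In RNA of whole cultures, more cells with a transcript and more transcript per cell cannot be told apart.

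HNRNPC, with the gene ID 3183, encodes the hnRNP C proteins, which bind uridine tracts and are known to keep exons out of Alu elements. It stood at 201, 199 and 238 FPKM in the controls and at 272, 246 and 296 FPKM with the ARID1A shRNA. The groups did not overlap, and its log2 fold change of 0.35, with a standard error of 0.11 and a 95% interval of 0.11 to 0.60, was the highest of all members and just missed the threshold (limma, adjusted p = 0.0557). It passed in 5 of 17 alternatives, with the replicate block (0.0231), by voom (0.0182), after upper quartile scaling (0.0454) and without shCONTROL replicate 3 (0.0441) or shARID1A replicate 2 (0.0390). HNRNPH3, a member of the hnRNP H group, which binds runs of guanines, is the gene for which the block mattered most. It stood at 57.6, 65.2 and 85.8 FPKM in controls 1, 2 and 3 and at 80.2, 74.6 and 112 FPKM in shARID1A 1, 2 and 3. The groups overlapped, and replicate 3 was the highest of both, while within each number the shARID1A sample was above its control. The adjusted p was 0.222 without and 0.0319 with the replicate block, at a log2 fold change of 0.35. With single samples left out, that value ran from 0.17 without shARID1A replicate 3 to 0.51 without shCONTROL replicate 3.

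Promoters are shown for the 4 genes that passed with the replicate block, since these are the members for which a difference in mRNA was called in either of the 2 fits. Each is the 250 bases before the RefSeq start of the gene, read 5′ to 3′ on the strand of the gene, in build GRCh38.p14. SRSF5 lies on the plus strand at chr14:69766892-69767141, SRSF1 on the minus strand at chr17:58007247-58007496, HNRNPC on the minus strand at chr14:21269443-21269692 and HNRNPH3 on the plus strand at chr10:68331443-68331692. Capitals mark matches, on either strand, to CCAAT (the CCAAT box), GGGCGG (the GC box), TGACGT (the core of cyclic AMP response elements), TTTNGCGC (an E2F-type site) or TGANTCA (an AP-1-type site), of which TGACGT was added after the sequences had been read.
SRSF5: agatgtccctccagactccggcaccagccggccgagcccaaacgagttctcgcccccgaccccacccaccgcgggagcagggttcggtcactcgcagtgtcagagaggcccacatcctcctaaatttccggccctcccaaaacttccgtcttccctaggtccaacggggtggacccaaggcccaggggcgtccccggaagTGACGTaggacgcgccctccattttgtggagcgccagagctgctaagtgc
SRSF1: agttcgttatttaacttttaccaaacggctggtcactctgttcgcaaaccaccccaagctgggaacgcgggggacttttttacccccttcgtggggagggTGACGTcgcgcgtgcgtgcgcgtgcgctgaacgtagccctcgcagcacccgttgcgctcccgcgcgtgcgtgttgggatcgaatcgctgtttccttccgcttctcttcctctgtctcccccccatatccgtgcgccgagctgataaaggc
HNRNPC: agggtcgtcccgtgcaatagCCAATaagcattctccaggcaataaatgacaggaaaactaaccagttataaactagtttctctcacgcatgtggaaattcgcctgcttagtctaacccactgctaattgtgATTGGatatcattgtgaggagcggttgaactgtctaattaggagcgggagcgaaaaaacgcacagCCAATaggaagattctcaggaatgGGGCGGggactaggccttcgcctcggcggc
HNRNPH3: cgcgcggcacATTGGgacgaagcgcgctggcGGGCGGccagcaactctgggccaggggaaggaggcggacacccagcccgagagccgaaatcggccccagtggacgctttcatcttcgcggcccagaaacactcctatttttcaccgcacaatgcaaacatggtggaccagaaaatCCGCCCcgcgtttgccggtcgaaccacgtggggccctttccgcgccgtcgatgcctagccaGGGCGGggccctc
The promoters of SRSF5 and SRSF1, whose log2 fold changes had opposite signs, each held 1 TGACGT and neither a CCAAT nor a GGGCGG. That of HNRNPC held 3 CCAAT and 1 GGGCGG and that of HNRNPH3 held 1 CCAAT and 3 GGGCGG. Over the 31 members with a sequence (SRSF2, HNRNPA1, HNRNPA1P33 and HNRNPA3P1 had none), 15 held CCAAT (48.4%), 20 GGGCGG (64.5%), 5 TGACGT (16.1%) and 0 either of the other motifs. Over the 27305 RefSeq promoter windows of the same length the shares were 33.0%, 42.3% and 7.42%, and 1.54% for TTTNGCGC and 6.60% for TGANTCA. These windows were not limited to genes tested here, so they are an unlike set. The 5 with TGACGT include SRSF5 and SRSF1, which had been read before that motif was added. No conclusion can therefore be drawn from its share. The median G and C content was 65.6% for the members and 58.0% for all windows. A match describes letters in the reference sequence only, and no binding was measured.

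The hnRNP A/B genes include the highest levels of all members. HNRNPA2B1, whose proteins bind RNA in splicing and transport, stood at 332, 348 and 399.8 FPKM in the controls and at 374, 302 and 485 FPKM with the ARID1A shRNA. Its groups overlapped widely, with means of 359.9 ± 35.5 and 387 ± 92.6 FPKM and a log2 fold change of 0.08 (adjusted p = 0.759). HNRNPAB, which binds single-stranded DNA and RNA, stood at 320.2, 309 and 291 FPKM and at 428, 347 and 324 FPKM. All its shARID1A values were above the controls, with a log2 fold change of 0.25 and a 95% interval of -0.01 to 0.50 (limma, adjusted p = 0.167). The log2 fold change was 0.33 without shARID1A replicate 3 (adjusted p = 0.0441) and 0.13 without shARID1A replicate 1 (0.457). HNRNPA0, which binds AU-rich elements in stress responses, overlapped, at 99.8 to 115 FPKM in the controls and 102 to 131 FPKM with the ARID1A shRNA (adjusted p = 0.333, and 0.0465 without shARID1A replicate 3). HNRNPA3, at 79.5 to 95.2 and 70.8 to 112 FPKM, had a log2 fold change of 0.03, and its sign turned without shCONTROL replicate 1 or 2 or shARID1A replicate 3 (-0.02, -0.02 and -0.16).

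HNRNPA1, the best known splicing repressor of this group, was listed far below HNRNPA2B1. It had 13.2, 13.3 and 13.3 FPKM in the controls and 14.4, 9.97 and 17.2 FPKM with the ARID1A shRNA. The shARID1A samples lay on both sides of the controls (log2 fold change 0.03, 95% interval -0.36 to 0.42). Its copies HNRNPA1L2, at 6.35 to 8.69 and 6.65 to 8.69 FPKM, and HNRNPA1P33, at 2.82 to 3.15 and 2.13 to 2.61 FPKM, had lower levels and did not pass (adjusted p = 0.695 and 0.222). For HNRNPA1P33 all shARID1A values lay below the controls. GENCODE release 29 names 74 pseudogenes of HNRNPA1, 16 of HNRNPA3 and 9 of HNRNPC, more than of any other member, and 17 of the 35 members have at least 1. How reads that match several places were counted is not stated in the sources used here, which leaves the levels of HNRNPA1 and its copies uncertain. The pseudogene HNRNPA3P1 had 1 to 5 reads per sample and was not tested.

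**Figure D2:**
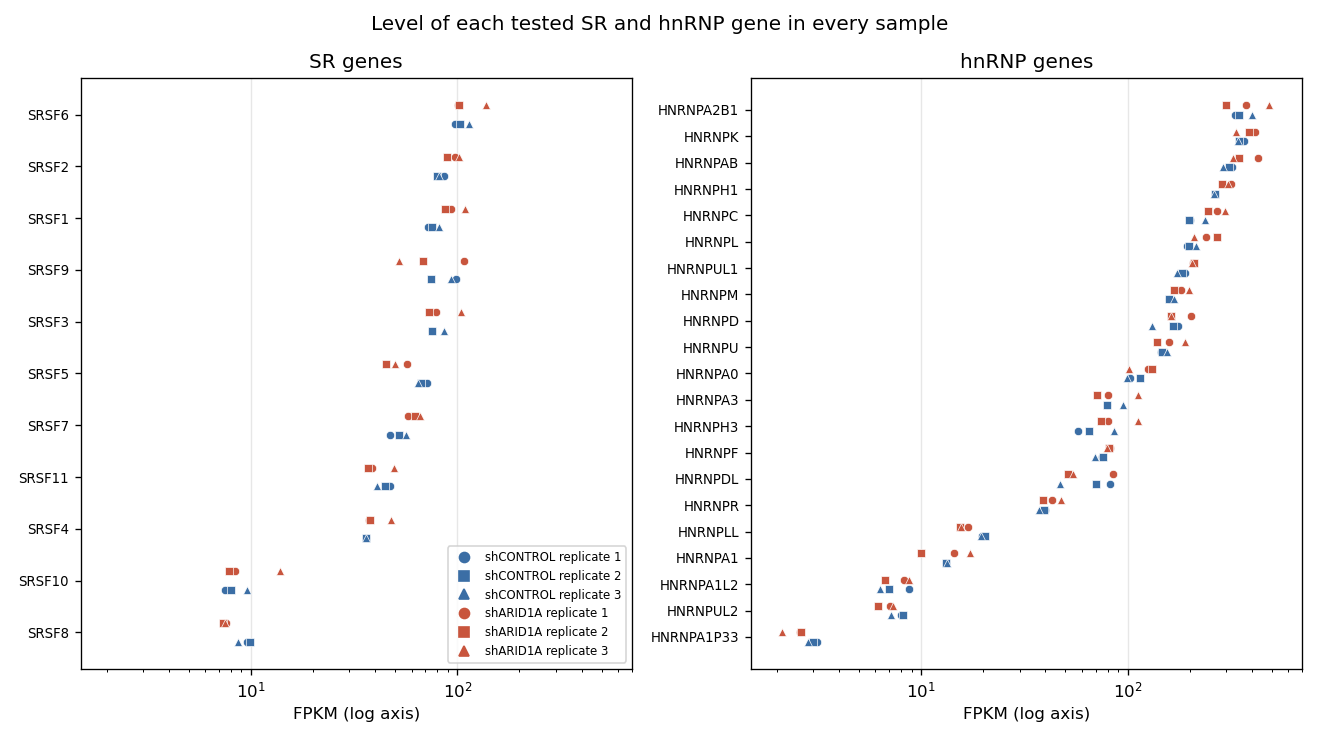
Level of each tested gene in every sample (FPKM, log axis), SR genes on the left and hnRNP genes on the right, ordered by mean. Colours give the group and symbols the replicate number. HNRNPA2B1, HNRNPK and HNRNPAB are at the top, HNRNPA1 is near the foot at about 13 FPKM, and the groups overlap for 19 of the 32 genes. The share without overlap is 40.6%, against 38.8% of all genes tested.

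In the F and H group, hnRNP F and hnRNP H1 bind guanine runs beside splice sites. HNRNPH1 stood at 266, 266 and 263 FPKM in the controls and at 319, 286 and 305 FPKM with the ARID1A shRNA (means 265 ± 1.65 and 303 ± 16.3 FPKM). The groups did not overlap, yet the log2 fold change was only 0.19 (limma, adjusted p = 0.127, and 0.0348 by voom). HNRNPF was similar in pattern, at 75.3, 75.8 and 69.8 FPKM and at 82.5, 81.0 and 79.9 FPKM (log2 fold change 0.14, adjusted p = 0.257). HNRNPH2 was listed at 0 in 4 samples, with 3 and 5 reads in the other 2. It was listed a second time with another denominator, of which the first row was used, and it lies within the read-through gene RPL36A-HNRNPH2 in GENCODE release 29, so its level is uncertain.

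HNRNPK, which binds cytosine-rich RNA and DNA through KH domains, stood at 366, 348 and 342 FPKM in the controls and at 416, 387 and 336 FPKM with the ARID1A shRNA. Its lowest value of all was that of shARID1A replicate 3, so the groups overlapped (log2 fold change 0.10, adjusted p = 0.491). HNRNPD, which encodes the mRNA decay factor AUF1, and its neighbour on chromosome 4, HNRNPDL, varied mostly between samples of a group. HNRNPDL ran from 47.3 to 82.7 FPKM in the controls and from 51.5 to 85.3 FPKM with the ARID1A shRNA, HNRNPD from 131 to 176 and from 162 to 202 FPKM (adjusted p = 0.863 and 0.456). The sign for HNRNPDL, -0.07, turned by voom and without shCONTROL replicate 1 or shARID1A replicate 2 or 3 (0.04, 0.10, 0.06 and 0.02).

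In the L group the members had log2 fold changes of opposite sign. HNRNPLL, with the gene ID 92906, is known for switching CD45 exons in activated lymphocytes. It had 19.7, 20.3 and 19.4 FPKM in the controls and 16.9, 15.4 and 15.6 FPKM with the ARID1A shRNA. All its shARID1A values were lower, with means of 19.8 ± 0.474 and 15.9 ± 0.840 FPKM and a log2 fold change of -0.30 (standard error 0.090) that just missed the threshold (limma, adjusted p = 0.0546, and 0.0478 without shARID1A replicate 3). HNRNPL, its paralog, which binds CA repeats, had 194, 198 and 216 FPKM and 239, 273 and 209.6 FPKM. Here shARID1A replicate 3 fell inside the control range, and the log2 fold change of 0.24 (adjusted p = 0.163) passed only without that sample among the alternatives (0.33, adjusted p = 0.0278). The difference between these 2 paralogs was not tested.

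Of the remaining hnRNP genes, HNRNPUL1, a homolog of hnRNP U linked to DNA end resection, had the smallest spread in the shARID1A samples. It stood at 189, 183 and 173 FPKM in the controls and at 208, 209 and 205 FPKM with the ARID1A shRNA. The groups did not overlap. The adjusted p by limma was 0.124, and 0.0350 by voom, at a log2 fold change of 0.19. It overlaps TGFB1 on the opposite strand in GENCODE release 29, and the strand of the reads is not stated. The same limit holds for other members, such as HNRNPH3 (opposite PBLD and RUFY2), SRSF2 (MFSD11), SRSF9 (GATC) and HNRNPA2B1 (CBX3 and NFE2L3). HNRNPU, the nuclear scaffold protein, overlapped at 146 to 156 and 139 to 191 FPKM, HNRNPM, which cooperates with splicing programmes of mesenchymal cells, at 159 to 168 and 168 to 199 FPKM, and HNRNPR, which binds mRNA in neurons, at 38.8 ± 1.48 and 43.2 ± 4.49 FPKM (adjusted p = 0.529, 0.222 and 0.333). HNRNPUL2 was lower in mean, at 7.77 ± 0.512 and 6.87 ± 0.586 FPKM (log2 fold change -0.16, adjusted p = 0.343), and shares its locus with the read-through gene HNRNPUL2-BSCL2. In all, 22 of the 35 members overlap another annotated gene in that release.

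Within the shARID1A group the samples differed in level, over all genes tested as well as over the members. Replicate 3 was the highest of the 3 shARID1A samples for 18 of 32 members (56.2%, against 44.6% of all genes tested), and replicate 2 the lowest for 21 (65.6%, against 42.3%). Among the 11 SR genes replicate 3 was the highest for 8 (72.7%), and among the 21 hnRNP genes for 10 (47.6%), near the share over all genes. It was the lowest for 8 of the 32 members (25.0%, against 37.6% of all genes), 7 of them hnRNP genes. The median within-group SD of log2(FPKM + 1) was 0.086 in the controls and 0.18 with the ARID1A shRNA for the members, beside 0.10 and 0.17 for all genes tested. Without shARID1A replicate 3 the median log2 fold change of the members was 0.04, against 0.13 with all samples, and without shARID1A replicate 2 it was 0.19. The medians over all genes tested were -0.10 and -0.07 in these settings.

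**Figure D3:**
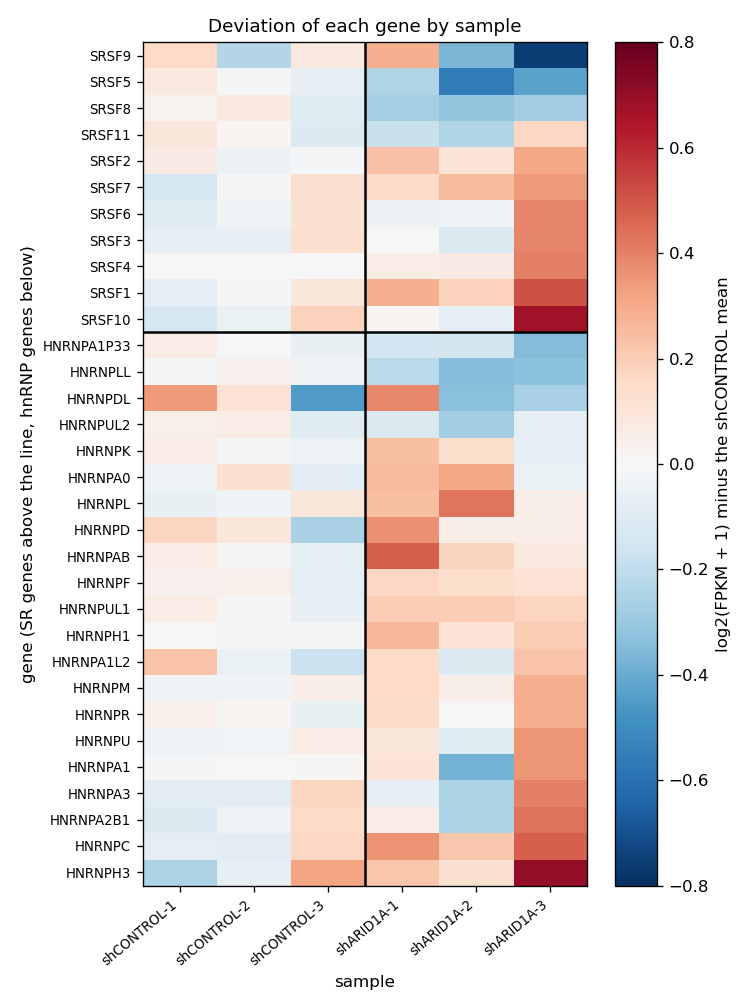
Deviation of log2(FPKM + 1) from the shCONTROL mean for each tested member (rows) in each sample (columns), SR genes above the line, hnRNP genes below, ordered within each family by shARID1A replicate 3. That sample holds the strongest colours of both signs, from SRSF9 to SRSF10 and HNRNPH3, while SRSF5, SRSF8 and HNRNPLL are low in all 3 shARID1A samples.

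Other genes of the splicing pathway were counted in 6 lists of 132 genes, 129 of them tested, which were chosen with earlier results of these data known. Of these 129, 5 rose and 2 fell (5.43%, against 16.8% of all genes tested). In the 19 SR-related and coactivator genes, 2 rose and 0 fell (10.5%, against 16.8% of all genes), with a median of 0.01. TRA2B, an SR-like splicing activator, rose from 48.4, 44.2 and 47.8 FPKM to 56.8, 59.0 and 64.2 FPKM (log2 fold change 0.35, limma adjusted p = 0.0312). ALYREF, an adaptor that couples splicing to mRNA export, rose from 75.6, 71.2 and 67.7 FPKM to 104, 88.0 and 91.5 FPKM (0.40, adjusted p = 0.0267). The groups did not overlap for either, which was so for 21.1% of the list and 38.8% of all genes tested. Both calls were lost on leaving out any control or shARID1A replicate 1 (adjusted p up to 0.165 and 0.118). Of the 11 genes of SR protein kinases and nuclear import factors, 0 passed and 2 had an unadjusted p below 0.05 (18.2%, against 33.9% of all genes), with a median of -0.07. By voom that count of calls was also 0, while CLK1, CLK2 and DYRK1A fell without shARID1A replicate 3 (adjusted p = 0.0254, 0.0465 and 0.0286), a setting in which 19.6% of all genes fell.

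Of 15 tested genes of hnRNP proteins with other symbols, 0 passed and 4 had an unadjusted p below 0.05 (26.7%, against 33.9% of all genes). The median was 0.05. By voom 3 rose, a direction in which 9.80% of all genes passed, and the median was 0.16. With the replicate block KHSRP and RBMX rose (log2 fold change 0.28 and 0.32, adjusted p = 0.0430 and 0.0290), and so did 8.12% of all genes. KHSRP, RBMX and PTBP1 were among those that rose without shARID1A replicate 3, where 9.51% of all genes rose. Of 24 tested other splicing regulators 1 rose and 1 fell (8.33%, against 16.8% of all genes), with a median of 0.00. SFPQ, a paraspeckle and splicing protein, rose from 154, 155 and 162 FPKM to 187, 194 and 186 FPKM (log2 fold change 0.27, adjusted p = 0.0470), a call that was lost in 10 of 17 alternatives, the replicate block among them (0.0538). With that block MBNL2 passed as well as RBM4, both lower, a direction in which 15.5% of all genes passed (MBNL2 log2 fold change -0.54, adjusted p = 0.0280). RBM4, which antagonises polypyrimidine tract binding in exon choice, fell from 20.3, 20.5 and 19.3 FPKM to 14.7, 15.1 and 13.9 FPKM (-0.43, adjusted p = 0.0154). Leaving out shCONTROL 1, shCONTROL 2 or shARID1A 1 ended its call (adjusted p up to 0.0968). The list had 0 calls on leaving out each of these 3 samples, and 4 without shARID1A replicate 3, where MBNL2, ESRP1 and RBM4 fell and SFPQ rose. Without shARID1A replicate 3, 29.2% of all genes passed.

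The core snRNP and spliceosome genes had a median close to that of the members. Of 45, 2 rose and 1 fell (6.67%, against 16.8% of all genes tested). The median was 0.12, and 35 were above 0 (77.8%, against 38.1% of all genes). SNRNP40, a U5 snRNP protein, rose from 42.7, 40.7 and 40.9 FPKM to 51.0, 60.9 and 49.98 FPKM (log2 fold change 0.37, adjusted p = 0.0402 by limma), and the SF3b subunit SF3B3 from 48.7, 50.2 and 49.1 FPKM to 59.6, 64.2 and 58.0 FPKM (0.29, adjusted p = 0.0465). SLU7, which acts in the second step of splicing, fell from 28.6, 28.9 and 22.3 FPKM to 16.1, 14.0 and 18.0 FPKM (-0.69, adjusted p = 0.0124). For all 3 the groups did not overlap, which was so for 48.9% of the list and 38.8% of all genes tested. With the replicate block 7 rose and 1 fell, against 8.12% of all genes higher and 15.5% lower, and by voom 13 rose and 1 fell, against 9.80% and 7.85%. The count was 0 without shCONTROL replicate 1 or 2, 1 without shCONTROL replicate 3 or shARID1A replicate 1 (SLU7 each time) and 14 without shARID1A replicate 3 (10 higher, 4 lower), where 29.2% of all genes passed. SNRNP40 and SF3B3 lost their calls on leaving out each of the 5 samples other than shARID1A replicate 3 (adjusted p up to 0.160 and 0.168). SLU7 lost its call on leaving out shCONTROL replicate 1 or 2 (0.0579 and 0.0670). Of 15 nonsense-mediated decay factors, 0 passed and 2 had an unadjusted p below 0.05 (13.3%, against 33.9% of all genes), with a median of -0.06. There was 1 call by voom (RBM8A, higher), where 17.7% of all genes passed. Another 1 came without shARID1A replicate 3 (UPF3B, lower), where 29.2% of all genes passed.

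**Figure D4:**
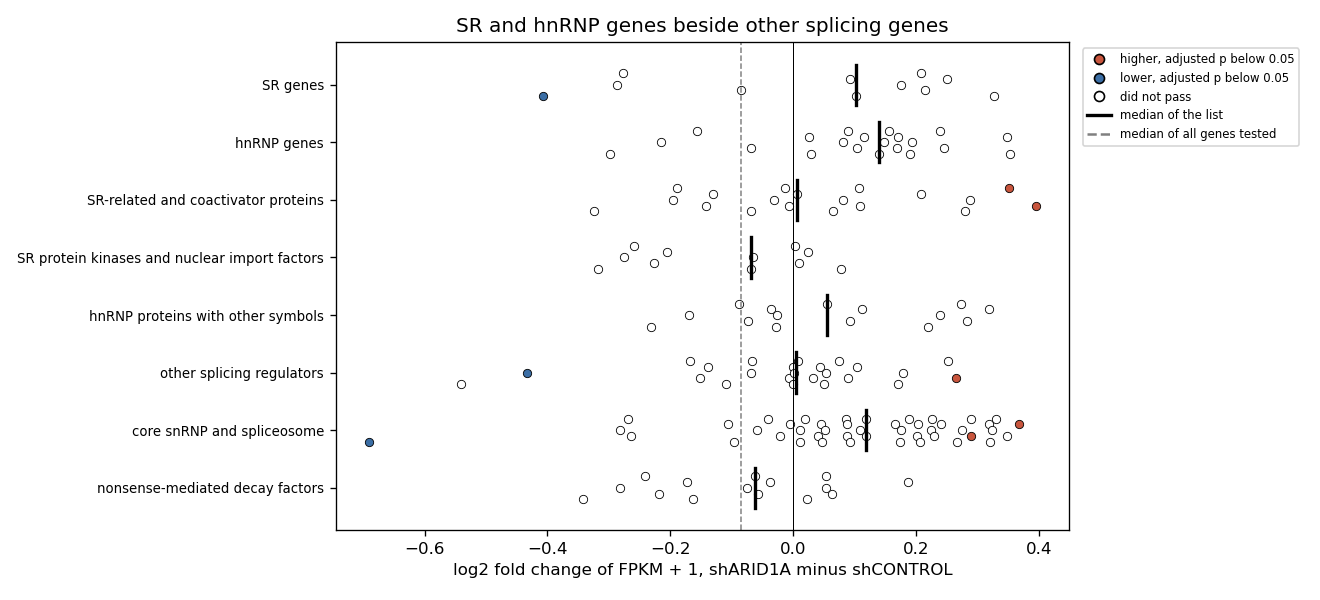
Log2 fold change (shARID1A minus shCONTROL) of each tested SR and hnRNP gene and of the genes of the 6 other splicing lists. Filled points passed the test, thick bars are list medians and the dashed line is the median of all genes tested (-0.08). The medians of the SR genes (0.10), hnRNP genes (0.14) and core spliceosome genes (0.12) lie furthest to the right, and most points are open.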

How the data were processed

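Per the labels' protocols, total RNA was isolated with TRIzol and sequenced as standard Illumina libraries. HISAT2 2.0.5 and featureCounts 1.5.0-p1 are named per the submitters' processing notes. The sources used here state neither settings, strand nor genome build. The authors deposited FPKM values per gene with gene lengths (value column headed Length). In the first 19421 rows, FPKM times length gave 1 common total for each sample, and 100% of values were whole reads within 0.01 reads. A further 393 rows with another denominator, 363 of them repeats of genes listed before, and 6234 empty rows were left out.

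The main test was limma 3.58.1 (R 4.3.3; lmFit, eBayes with trend) on log2(FPKM + 1) for genes whose mean reached 1 FPKM, two-sided, no covariates, 4 residual degrees of freedom, all 6 samples, adjusted p threshold 0.05. The same fit was run on simulated counts, drawn independently with a common dispersion for all genes, unlike these replicates. That run cannot show how the test performs on these data. Alternatives were a pseudocount of 0.1 or 5 FPKM, dropping the filter, raising it to 5 FPKM, equal FPKM sums, upper quartile scaling, quantile normalization, no trend, robust eBayes, the replicate number as a block, voom with TMM factors on recovered reads, and leaving out each sample. No pair of replicates differed as little as counting noise (chi-square per degree of freedom 5.38 to 84.7). Samples with the same number in their titles deviated together (correlations of 0.187 to 0.321 across genes, against -0.302 to 0.0859 for other pairs), a hint of pairing that comes from the data, since the labels state none.

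All members are named. Values in every sample are given for those that passed, the 3 highest and the 3 of smallest p in each family, and, of the other lists, up to 3 genes per direction that passed; samples of SRSF3, SRSF7, SRSF9, HNRNPA1, HNRNPF, HNRNPH1, HNRNPH3 and HNRNPL, the promoters shown, and list genes called only under an alternative were chosen after their values were seen. Members and lists were chosen with earlier results of these data known. Annotations came from RefSeq (GRCh38.p14), in which all 35 members were found by gene ID, and from GENCODE release 29. KDR, HBA1 and HBB were not analysed here. Figures used Python 3.11.15 and matplotlib 3.10.9.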

Additional observations from a re-analysis of the deposited data

How the results depend on the processing

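Of 543 repeats for the 32 members over the alternatives, 505 kept their sign and their side of the threshold, 6 lost a call (all of SRSF5), 17 gained one and 15 turned in sign. The turns concerned 9 genes, by voom SRSF11 (0.022) and HNRNPDL (0.039), the others when 1 sample was left out. With single samples left out, the log2 fold changes ran from -0.057 to 0.20 for SRSF3, -0.042 to 0.18 for SRSF6, -0.026 to 0.35 for SRSF10, -0.13 to 0.23 for HNRNPA1, -0.095 to 0.25 for HNRNPA2B1, -0.16 to 0.17 for HNRNPA3, -0.30 to 0.10 for HNRNPDL and -0.0029 to 0.22 for HNRNPU. The count of members that passed, 1, was 0 without the filter, 2 with upper quartile scaling, 4 with the replicate block and 6 by voom, and 0 to 5 with single samples left out. All genes passing numbered 2740 with the replicate block (942 higher, 1798 lower) and 584 to 3388 with single samples left out (744, 584, 788 and 3388 without shCONTROL replicate 1, shCONTROL replicate 2, shARID1A replicate 1 and shARID1A replicate 3). ARID1A passed in all 17 alternatives. For the other lists, hnRNP proteins with other symbols had 1 call with equal FPKM sums, 2 with upper quartile scaling, 2 with the replicate block and 3 by voom. The other splicing regulators had 1 without the filter, after quantile normalization, without the trend and with robust eBayes. The core spliceosome genes had 7 with upper quartile scaling, 1 without the trend, 8 with the replicate block and 14 by voom, and the decay factors 1 by voom. Over all genes, 7.77% passed without the filter, 15.8% with equal FPKM sums, 16.0% with upper quartile scaling and 15.3% after quantile normalization. The shares were 16.6% without the trend and with robust eBayes, 23.6% with the replicate block and 17.7% by voom. With single samples left out, the calls were 0 to 5 for SR-related genes, 0 to 3 for kinases and import factors, 0 to 4 for hnRNP proteins with other symbols, 0 to 4 for other regulators, 0 to 14 for core spliceosome genes and 0 to 1 for decay factors. The share over all genes then ran from 5.05% to 29.2%. The cause of these shifts was not tested. The replicate block changed no other call of a member. SRSF12, HNRNPH2 and HNRNPA3P1 had at most 5 reads in any sample, too few to compare.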
